A study of Columba livia and Gallus gallus with 96 samples.

Results

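The 6 pigeon genes described here are among those whose difference between hindlimb and forelimb buds was altered in feather-footed muff embryos: PKDCC, CXCL12, PRSS12, APCDD1L, LVRN and EEF1A2. Each of the 6 symbols matched 1 feature, of 21379 features in the pigeon counts. They were chosen from these data, as genes whose hindlimb-forelimb difference in stage HH29 buds differed between muff and scale when the limbs were paired by replicate number. RNA was sequenced from limb buds of domestic pigeon (Columba livia) embryos in 18 groups of 4 libraries. The groups cross 3 foot phenotypes, called scale (scaled feet), grouse and muff (both feather-footed), with forelimb or hindlimb bud and with Hamburger-Hamilton stages HH21, HH25 and HH29, which are embryonic days 3.5, 4.5 and 6. No group carries a transgene or a treatment, and the breeds, the embryos' sexes and the number of embryos behind each library are not given in the labels.

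Vertebrate forelimb and hindlimb buds start from similar mesenchyme and are set apart by transcription factors: TBX5 acts in the forelimb, and PITX1 and TBX4 act in the hindlimb. In feather-footed pigeons, regulatory alleles at PITX1 and TBX5 are known to shift the hindlimb towards a forelimb-like state. The 6 genes act mostly outside the nucleus. CXCL12 is a secreted chemokine that guides migrating cells through its receptors CXCR4 and ACKR3. PKDCC is a secreted kinase that phosphorylates extracellular proteins and is needed for long bone growth in the mouse. PRSS12, or neurotrypsin, is a secreted serine protease that cleaves agrin at synapses in mammals. APCDD1L is a relative of APCDD1, a membrane inhibitor of Wnt signalling. LVRN, or laeverin, is a membrane aminopeptidase, and EEF1A2 is the form of translation elongation factor 1 alpha that is used in adult muscle and neurons in mammals.

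Totals ran from 10438537 to 16378164 counts per library, with a median of 12915095. The limb labels held: TBX5 was at 129 to 358 CPM (counts scaled to library size) in all forelimb groups and at most 4.24 CPM in hindlimbs of scale, grouse and HH21 muff, whereas muff hindlimbs held 23.6 to 28.2 CPM at HH25 and 28.6 to 62.7 CPM at HH29. PITX1 ranged from 294 to 311 CPM in scale hindlimbs at HH29 and from 211 to 260 CPM in those of muff. The mean log2 CPM of features on chromosome Z, of which male birds carry an extra copy, fell into a low and a high class. At HH25 all 4 scale numbers were high (4.77 to 4.96), whereas in muff only number 1 was high (4.87, against 4.17 to 4.30). At HH21 the limbs of muff numbers 2 and 4 were of unlike class (4.12 and 4.75 for number 2, and 4.86 and 4.29 for number 4, forelimb first). The muff HH21 limb ratio of PKDCC and the number of genes called for that limb difference are therefore also given without them. Other HH21 values of muff include them. At HH29 the summed level of 5 of 9 blood markers ran from 681 to 743 CPM in muff forelimbs against 241 to 576 in scale, and from 665 to 972 CPM in muff hindlimbs against 365 to 718 in scale. That of 10 of 11 mesenchyme markers lay lower in muff (628 to 769 CPM in forelimb and 646 to 791 in hindlimb, against 770 to 869 and 820 to 919), as did that of 8 of 11 nerve markers (127 to 166 and 152 to 179 CPM, against 181 to 200 and 180 to 209). The part of these shifts in the results was not tested, and in bulk tissue fewer cells of a type and less RNA per cell cannot be told apart.

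The values that chose the genes are given as a description only. With limbs paired, edgeR's quasi-likelihood test called 21 of 14090 features (0.149%) at HH29, and these 6 are among them. Features of TBX5 (change of the log2 ratio 3.66) and PITX1 (-1.29), which are not described here as members, headed that list. The change of the log2 hindlimb/forelimb ratio from scale to muff was 1.15 for PKDCC (standard error (SE) 0.16), 0.68 for APCDD1L (SE 0.12), 0.49 for CXCL12 (SE 0.07), -0.60 for EEF1A2 (SE 0.10), -0.67 for LVRN (SE 0.11) and -0.88 for PRSS12 (SE 0.11). The features nearest the threshold of an adjusted p of 0.05 were HAND2 (-0.42) and SERPINE2 (0.34) inside it and CDH2 (-0.50) and SCRN1 (-0.47) outside. Without pairing, the test called 3 features (0.0213%) and none of the 6. Because both scale and muff HH29 libraries entered the choice, the values of the 6 genes carry no test below in any comparison that uses those libraries; listed genes other than the 6 are tested there.

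**Figure D1:**
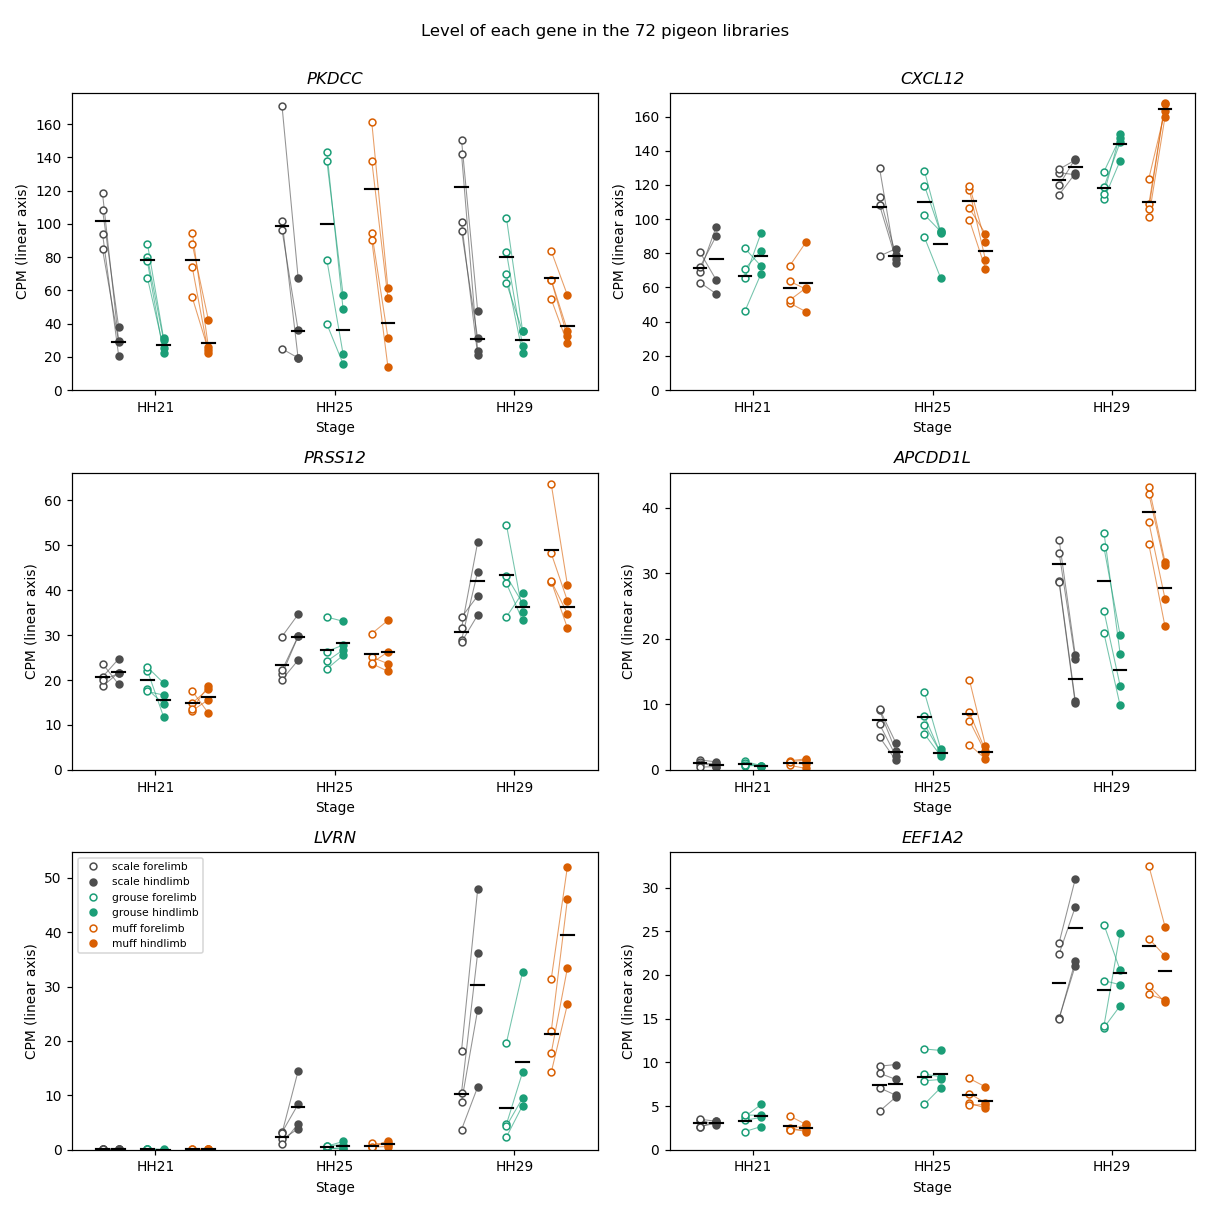
Level of each gene in CPM (linear axes from 0) in every library, by stage, with open points for forelimb and filled points for hindlimb, thin lines joining limbs of 1 number and black bars for group means of 4. At HH29, PKDCC in the muff forelimb lies below scale (means 67.6 and 122 CPM), while CXCL12 in the muff hindlimb lies above it (164 and 131 CPM).

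Expression of CXCL12 was higher in the muff hindlimb at HH29, with a smaller estimate of opposite sign in the forelimb. Hindlimb libraries held 135, 127, 126 and 135 CPM in scale, 134, 150, 145 and 148 CPM in grouse and 167, 163, 160 and 168 CPM in muff. All 4 muff hindlimbs lay above all scale and all grouse hindlimbs. Forelimbs held 120, 114, 127 and 129 CPM in scale and 109, 124, 101 and 106 CPM in muff, and these overlapped. The log2 muff/scale ratio was 0.34 in hindlimb (SE 0.07) and -0.15 in forelimb (SE 0.08). In linear terms the hindlimb held 1.50 times the forelimb's mean in muff, 1.22 times in grouse and 1.07 times in scale.

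At HH29 the log2 hindlimb/forelimb estimate of CXCL12 was 0.30 in grouse (SE 0.08) and 0.09 in scale (SE 0.07). The grouse difference did not pass by edgeR, unpaired (adjusted p = 0.162) or with limbs paired (0.107), but passed by DESeq2 (0.0414). A stage earlier the hindlimb mean was the lower in every phenotype. At HH25 the forelimb mean was 107 CPM in scale, 110 CPM in grouse and 111 CPM in muff, against 78.3, 85.7 and 81.3 CPM in hindlimb. With limbs paired it was lower in hindlimb in scale (log2 ratio -0.45, SE 0.09, adjusted p = 0.00761), grouse (-0.36, SE 0.05, adjusted p = 4.3e-05) and muff (-0.45, SE 0.06, adjusted p = 0.000409) by edgeR. Without pairing, none of these passed (adjusted p = 0.227, 0.493 and 0.0628). At HH21 no limb difference passed in any phenotype, with means from 59.9 to 78.5 CPM. The forelimb rose from HH21 to HH25 in scale (log2 0.59, SE 0.14, adjusted p = 0.00949), grouse (0.73, SE 0.16, adjusted p = 0.00768) and muff (0.89, SE 0.12, adjusted p = 0.000309). The scale value fell to 0.36 with a term for the Z level and did not pass (adjusted p = 0.401). The hindlimb measured 0.03 in scale (SE 0.15, adjusted p = 0.88), 0.13 in grouse (SE 0.14, adjusted p = 0.58) and 0.37 in muff (SE 0.17, adjusted p = 0.125) over that interval, and the difference between the limbs' changes was not tested. In grouse the hindlimb rose from HH25 to HH29 (0.75, SE 0.11, adjusted p = 0.000688), while the grouse forelimb estimate was 0.09 (SE 0.11, adjusted p = 0.694). The same hindlimb interval measured 0.73 in scale (SE 0.07) and 1.01 in muff (SE 0.09). None of the 3 other listed genes of the pathway, the receptors CXCR4 and ACKR3 and the chemokine CXCL14, had a limb difference that differed between muff and scale at HH29 (paired log2 changes -0.28, 0.26 and -0.07, adjusted p = 0.781, 0.257 and 0.93). ACKR3, a receptor that removes CXCL12 from the tissue, was lower in hindlimb than forelimb in scale at HH29 (paired log2 ratio -0.41, SE 0.04, adjusted p = 4.79e-06; 11.2% of features called; unpaired adjusted p = 0.0755).

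PKDCC was a forelimb gene in every phenotype, and its muff difference at HH29 lay mainly in the forelimb. Forelimb libraries held 150, 95.9, 142 and 101 CPM in scale, 82.9, 104, 64.4 and 69.6 CPM in grouse and 83.5, 66.4, 54.6 and 65.9 CPM in muff. All 4 muff forelimbs lay below all 4 scale forelimbs, and the grouse forelimbs overlapped both. Hindlimbs held 47.7, 31.0, 23.4 and 21.2 CPM in scale and 57.1, 35.7, 28.0 and 32.2 CPM in muff, which overlapped. The log2 muff/scale ratio was -0.85 in forelimb (SE 0.16) and 0.31 in hindlimb (SE 0.26). The hindlimb thus held 0.252 times the forelimb mean in scale, 0.375 times in grouse and 0.566 times in muff.

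The forelimb excess of PKDCC was present from HH21. At HH21 the hindlimb was lower by edgeR in scale (log2 ratio -1.79, SE 0.17, adjusted p = 0.000481), grouse (-1.54, SE 0.14, adjusted p = 0.000544) and muff (-1.46, SE 0.23, adjusted p = 0.0127). Without muff numbers 2 and 4 the muff ratio was -1.50 (adjusted p = 0.177), or -1.49 with limbs paired (adjusted p = 1e-05). That paired fit rests on the pairs of numbers 1 and 3 alone, so its p is given little weight. At HH25 the paired ratios were -1.46 in scale (SE 0.18, adjusted p = 9.13e-05), -1.48 in grouse (SE 0.07, adjusted p = 7.73e-11) and -1.67 in muff (SE 0.15, adjusted p = 2.37e-05), and unpaired none passed (adjusted p = 0.479, 0.302 and 0.119). Levels varied widely between numbers here: grouse forelimbs held 143, 138, 39.7 and 78.2 CPM and their hindlimbs 48.9, 57.4, 15.8 and 21.8 CPM in the same order of numbers. The hindlimb/forelimb ratio of single pairs ran from 0.279 to 0.417 in grouse, and more widely in scale (0.186 to 0.778) and muff (0.153 to 0.402). At HH29 the grouse hindlimb was again lower (-1.40, SE 0.19, adjusted p = 0.00872 unpaired). Over time PKDCC passed in 1 of the 8 intervals tested, a rise in the muff forelimb from HH21 to HH25 (0.64, SE 0.20, adjusted p = 0.0384). This rise did not pass without forelimb number 1 or 3 at HH21 or number 1 or 2 at HH25 (adjusted p up to 0.101). With number as a block it did not pass either (adjusted p = 0.093). Libraries of 1 number at different stages come from different embryos, so that block is no pairing. From HH25 to HH29 the muff forelimb measured -0.84 (SE 0.19), against 0.30 in the scale forelimb (SE 0.40) and -0.33 in the grouse forelimb (SE 0.34, adjusted p = 0.621). Of 8 listed relatives among the secreted kinases 4 had a feature, and none of these had a different limb difference in muff at HH29. Among them FAM20C, which phosphorylates secreted proteins of bone and teeth in mammals, measured 0.15 with limbs paired (adjusted p = 0.902).

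For PRSS12 the order of the limbs was turned around. At HH29 scale forelimbs held 28.9, 31.5, 28.5 and 34.0 CPM and scale hindlimbs 44.1, 50.7, 34.5 and 38.7 CPM, so the hindlimb was higher in all 4 pairs. Muff forelimbs held 48.2, 41.9, 63.6 and 42.0 CPM and muff hindlimbs 37.6, 31.6, 41.2 and 34.8 CPM, so the hindlimb was lower in all 4 pairs. Grouse lay between in its mean pair ratio, with forelimbs at 43.2, 54.6, 34.1 and 41.5 CPM and a higher hindlimb in 1 of 4 pairs. All 4 muff and all 4 grouse forelimbs lay above all scale forelimbs, the lowest grouse library only just (34.1 against 34.0 CPM), while the hindlimbs of the 3 phenotypes overlapped. The log2 muff/scale ratio was 0.68 in forelimb (SE 0.14) and -0.20 in hindlimb (SE 0.13).

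The limbs of scale embryos already differed in PRSS12 at HH25, where the paired log2 ratio was 0.34 (SE 0.07, adjusted p = 0.00402; unpaired adjusted p = 0.688). In the same test grouse measured 0.08 (SE 0.06, adjusted p = 0.484) and muff 0.03 (SE 0.07, adjusted p = 0.875). The single pairs ran from 0.22 to 0.47 in scale and from -0.11 to 0.14 in muff and did not overlap, which held for 3.87% of 13110 features. The test of that difference did not pass (paired log2 change -0.32, SE 0.10, adjusted p = 0.509), and for grouse it measured -0.26 (SE 0.09, adjusted p = 0.564). At HH21 levels were 11.8 to 24.7 CPM. Muff lay at 14.8 CPM in forelimb and 16.2 in hindlimb, against 20.7 and 21.7 CPM in scale (log2 muff/scale -0.49, SE 0.14, adjusted p = 0.173, and -0.44, SE 0.15, adjusted p = 0.196). Neither passed by edgeR, and the forelimb difference passed by DESeq2 (adjusted p = 0.0483). From HH21 to HH25 PRSS12 rose in the hindlimb in scale (0.45, SE 0.13, adjusted p = 0.0208), grouse (0.86, SE 0.18, adjusted p = 0.00858) and muff (0.70, SE 0.17, adjusted p = 0.0107) and in the muff forelimb (0.81, SE 0.14, adjusted p = 0.00125), while the scale forelimb measured 0.17 (SE 0.15, adjusted p = 0.399) and the grouse forelimb 0.41 (SE 0.15, adjusted p = 0.0691). The difference between those forelimb rises was not tested. From HH25 to HH29 the grouse forelimb rose by 0.68 (SE 0.17, adjusted p = 0.0378) and the grouse hindlimb by 0.36 (SE 0.10, adjusted p = 0.0296). With number as a block the forelimb rise did not pass (adjusted p = 0.0805), but that block joins different embryos and is no pairing. Of these PRSS12 calls, the scale hindlimb was lost without number 2 at HH21 or number 4 at HH25 (adjusted p up to 0.0631), the grouse forelimb without number 1, 2 or 4 at HH25 or 1 or 4 at HH29 (up to 0.118), and the grouse hindlimb without number 1, 2 or 4 at HH25 or 1, 2 or 3 at HH29 (up to 0.0805). These 3 calls were also lost with a term for the Z level (adjusted p = 0.243, 0.0745 and 0.0566 in that order). Of the 4 listed partners, AGRN (agrin, the substrate), MUSK and LRP4 (the agrin receptor complex of muscle) and RAPSN (its clustering protein), none differed in limb difference between muff and scale at HH29 (paired log2 changes from -0.16 to 0.22, adjusted p from 0.631 to 0.988).

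APCDD1L was higher in both muff limbs at HH29, most in the hindlimb. Hindlimbs held 17.6, 16.9, 10.6 and 10.1 CPM in scale, 9.83, 17.7, 12.9 and 20.6 CPM in grouse and 31.2, 31.8, 21.9 and 26.1 CPM in muff. All 4 muff hindlimbs lay above all scale and grouse hindlimbs, with a mean 2.01 times that of scale. Forelimbs held 35.1, 33.2, 28.9 and 28.6 CPM in scale and 42.1, 43.2, 34.4 and 37.8 CPM in muff, where 1 muff library lay within the scale range. The log2 muff/scale ratio was 1.01 in hindlimb (SE 0.20) and 0.33 in forelimb (SE 0.11). In every pair of the 3 phenotypes the forelimb was the higher limb, and the hindlimb held 0.439 times the forelimb mean in scale, 0.529 times in grouse and 0.705 times in muff.

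At HH25 APCDD1L was higher in forelimb in all 12 pairs, with mean forelimb levels of 7.57, 8.09 and 8.48 CPM and hindlimb levels of 2.68, 2.64 and 2.73 CPM in scale, grouse and muff. Ratios with limbs paired were -1.51 on the log2 scale in scale (SE 0.15, adjusted p = 1.26e-05), -1.61 in grouse (SE 0.14, adjusted p = 5.36e-07) and -1.62 in muff (SE 0.15, adjusted p = 2.08e-05), and grouse also passed unpaired (adjusted p = 0.0121). The grouse hindlimb at HH29 measured -0.92 with limbs paired (SE 0.10, adjusted p = 0.0161; unpaired -0.90, adjusted p = 0.193). At HH21 the gene was low, at 3 to 23 counts per library. It then rose in all 6 groups from HH21 to HH25, by log2 2.90 in scale forelimb (adjusted p = 0.000158), 3.05 in grouse forelimb (adjusted p = 4.58e-05), 2.91 in muff forelimb (adjusted p = 0.000221), 1.76 in scale hindlimb (adjusted p = 0.0078), 2.11 in grouse hindlimb (adjusted p = 0.000577) and 1.35 in muff hindlimb (adjusted p = 0.0425). The muff hindlimb call was lost without number 2 or 4 at HH21 or number 1, 3 or 4 at HH25 (adjusted p up to 0.113), and that of the scale hindlimb with a term for the Z level (1.26, adjusted p = 0.288). From HH25 to HH29 it rose by 2.52 in grouse hindlimb (SE 0.25, adjusted p = 9.51e-05) and 1.82 in grouse forelimb (SE 0.26, adjusted p = 0.00398), while the muff hindlimb measured 3.32 (SE 0.22) and the scale hindlimb 2.34 (SE 0.30).

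The better known relative APCDD1 had the same forelimb side. It was lower in hindlimb at HH25 in scale (log2 ratio -0.72, adjusted p = 0.0106), grouse (-0.64, adjusted p = 0.00334) and muff (-0.54, adjusted p = 0.00926), and at HH29 in scale (-0.90, adjusted p = 0.00907), grouse (-0.89, adjusted p = 0.00166) and muff (-0.67, adjusted p = 0.0269), where 1.72%, 0.953% and 0.654% of features were called at HH29. Its change from scale to muff at HH29 did not pass (paired 0.23, SE 0.07, adjusted p = 0.382). Of 20 other measured Wnt pathway genes, none had a limb difference that differed between muff and scale at HH29, with a median of -0.03 against -0.00243 over all features. In muff against scale forelimbs at HH29 1 of the 20 was called (0.715% of all features): WIF1, a secreted Wnt inhibitor, was lower in muff (-0.51, SE 0.10, adjusted p = 0.0437).

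**Figure D2:**
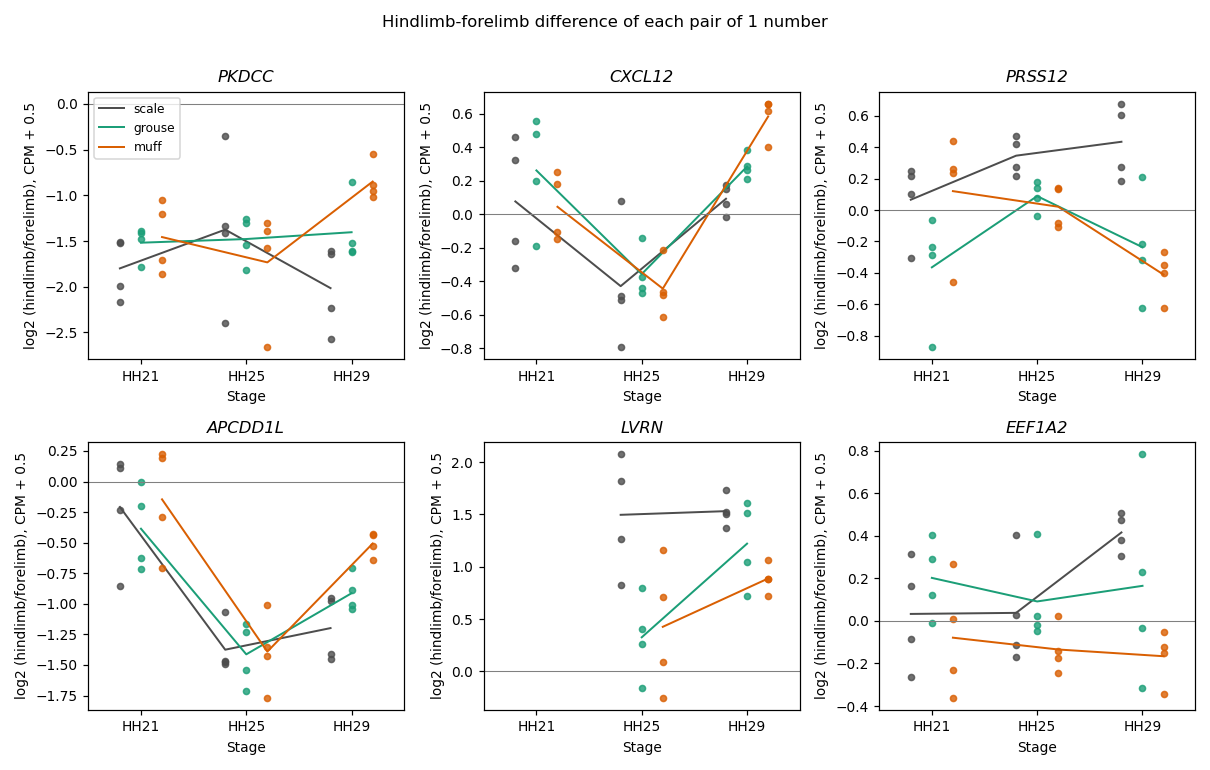
Difference between hindlimb and forelimb of each number, as log2 of the ratio of CPM plus 0.5, by stage and phenotype (points, 4 pairs each; lines join means; LVRN at HH21 is left out for want of counts). At HH29 the PRSS12 pairs lie between 0.19 and 0.68 in scale and between -0.62 and -0.27 in muff.

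LVRN was absent or nearly so at HH21 and became a hindlimb-weighted gene by HH29. HH29 hindlimbs held 25.7, 47.9, 11.5 and 36.2 CPM in scale, 8.12, 32.7, 14.2 and 9.50 CPM in grouse and 33.4, 52.0, 46.1 and 26.7 CPM in muff. Forelimbs held 8.77, 18.2, 3.70 and 10.5 CPM in scale, 2.33, 19.6, 4.66 and 4.35 CPM in grouse and 17.8, 31.4, 21.8 and 14.3 CPM in muff. Muff and scale overlapped in each limb. The log2 ratios of single pairs were 1.37 to 1.74 in scale and 0.72 to 1.06 in muff, a separation for which the gene was chosen. Grouse pairs, which did not choose it, ran from 0.72 to 1.61. The log2 muff/scale ratio was 1.06 in forelimb (SE 0.38) and 0.39 in hindlimb (SE 0.34). Numbers 2, 3 and 4 of muff and numbers 2 and 4 of scale were of the high Z class at this stage, and with a term for the Z level the ratios were 0.98 and 0.30. The hindlimb ratio moved to 0.12 without scale number 3, 0.23 without muff number 2 and 0.70 without scale number 2, and the change of the limb ratio, -0.68 unpaired, moved to -0.36 without scale hindlimb number 2, -0.39 without scale forelimb number 3, -0.43 without muff forelimb number 2 and -1.11 without scale forelimb number 2. In grouse the hindlimb was higher with limbs paired (1.29, SE 0.19, adjusted p = 0.0453; unpaired 1.08, SE 0.65, adjusted p = 0.791).

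At HH25 muff lay below scale. Scale hindlimbs held 3.83, 4.8, 8.38 and 14.5 CPM, grouse hindlimbs 0.385, 0.161, 1.52 and 0.941 CPM and muff hindlimbs 1.28, 0.579, 0.956 and 1.68 CPM. All muff hindlimbs lay below all scale hindlimbs, as was the case, in either direction, for 8.72% of features (log2 muff/scale -2.80, SE 0.46, adjusted p = 0.0345), and LVRN was the only 1 of the 6 genes called there (49 of 13285 features, 0.369%). The muff call was lost without scale hindlimb number 3 or 4 or muff hindlimb number 2 or 3 (adjusted p up to 0.143). LVRN lies on chromosome Z in the RefSeq table, and at this stage the scale libraries were all of the high Z class. With a term for the Z level the estimate was -2.95 and did not pass (adjusted p = 0.495). Muff number 1, the only muff number of the high class, held 0.585 CPM in forelimb and 1.28 in hindlimb, against 1.0 to 3.20 and 3.83 to 14.5 CPM in scale. Grouse number 4, the only grouse number of the high class (4.78 in forelimb and 4.79 in hindlimb), held 0.705 and 0.941 CPM. With 1 such number in each feather-footed phenotype, the part of Z class and that of phenotype cannot be told apart at this stage. Nerve markers also moved with this contrast, with a summed level of 35.0 to 61.1 CPM in muff and 72.9 to 126 CPM in scale hindlimbs. Their part in the result was not tested. The forelimb ratio was -1.71 (SE 0.43) and did not pass (adjusted p = 0.198). With number as a block it passed (adjusted p = 0.0288), where 3.7% of features were called. Muff and scale of 1 number are different embryos, and the labels do not say what they share. Muff forelimb number 3, at 1.23 CPM, lay within the scale range. At HH21 edgeR called none of the 5 genes tested between muff and scale in hindlimb (0.271% of features called) or forelimb (0.108%). At HH25 it called none in forelimb without a block or added term (0.128%). DESeq2 called PRSS12 in forelimb at HH21 (-0.49, adjusted p = 0.0483) and LVRN in forelimb at HH25 (-1.71, adjusted p = 0.0359). A term in edgeR for numbers 1 and 2 against 3 and 4 also called LVRN there (-1.70, adjusted p = 0.0333). The shares of all features called in these alternative fits are not given here.

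Counts of LVRN at HH21 summed to between 1 and 5 over the 4 libraries of a group, so only scale passed the filter for an interval from that stage. There it rose in the hindlimb (log2 6.38, SE 0.62, adjusted p = 4.25e-05) and the forelimb (4.41, SE 0.54, adjusted p = 0.000215), fitted sizes that rest on 4 and 5 counts at HH21 and depend on the prior count. From HH25 to HH29 LVRN rose in grouse hindlimb (4.39, SE 0.59, adjusted p = 0.000495) and forelimb (4.07, SE 0.78, adjusted p = 0.0129), the latter not without forelimb number 1 or 2 at HH25 (adjusted p up to 0.0512). The same interval measured 5.10 in muff hindlimb (SE 0.30) and 1.92 in scale hindlimb (SE 0.44). In scale at HH25 the hindlimb was higher with limbs paired (1.72, SE 0.19, adjusted p = 4.54e-05). Among 9 other aminopeptidases of the family tested, none differed in limb difference between muff and scale at HH29, including ANPEP, aminopeptidase N (paired log2 change -0.04, adjusted p = 0.988).

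For EEF1A2 at HH29 the muff estimate was higher in forelimb and lower in hindlimb, and only the pair ratios of muff and scale were apart. At HH29 forelimbs held 15, 23.7, 15 and 22.4 CPM in scale and 24.2, 17.8, 18.8 and 32.5 CPM in muff, and hindlimbs 21.1, 31.0, 21.6 and 27.8 CPM in scale and 22.2, 17.2, 16.9 and 25.5 CPM in muff. The groups overlapped in each limb, with log2 muff/scale at 0.30 in forelimb (SE 0.22) and -0.30 in hindlimb (SE 0.17). The pairs did not overlap: the hindlimb was higher in all 4 scale pairs (0.30 to 0.51) and lower in all 4 muff pairs (-0.34 to -0.05). Grouse pairs spread from -0.32 to 0.78 across both. At HH21 and HH25 no limb difference of EEF1A2 passed in any phenotype, paired or unpaired, with ratios between -0.15 and 0.22. The gene rose in all 6 groups from HH21 to HH25 by 1.15 to 1.32 (adjusted p from 0.000949 to 0.00736), although with a term for the Z level neither scale hindlimb (adjusted p = 0.0615) nor scale forelimb (0.0743) passed, and again in grouse from HH25 to HH29 in hindlimb (1.21, adjusted p = 0.000731) and forelimb (1.12, adjusted p = 0.0342). The grouse forelimb call was lost without number 1, 2 or 4 at HH25 or 3 or 4 at HH29 (adjusted p up to 0.102). The related form EEF1A1 and the other 5 listed elongation factors showed no limb difference that differed between muff and scale at HH29, with EEF1A1 at -0.02 and EEF2 at -0.04. Limb muscle markers, 12 of 14 detected, overlapped in their summed level between muff and scale (1918 to 2262 CPM in scale forelimb and 1909 to 2148 in muff; 1531 to 2110 and 1784 to 2075 CPM in hindlimb). Nerve markers lay lower in muff in each limb (127 to 166 against 181 to 200 CPM in forelimb, and 152 to 179 against 180 to 209 in hindlimb), and their part in the result was not tested.

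**Figure D3:**
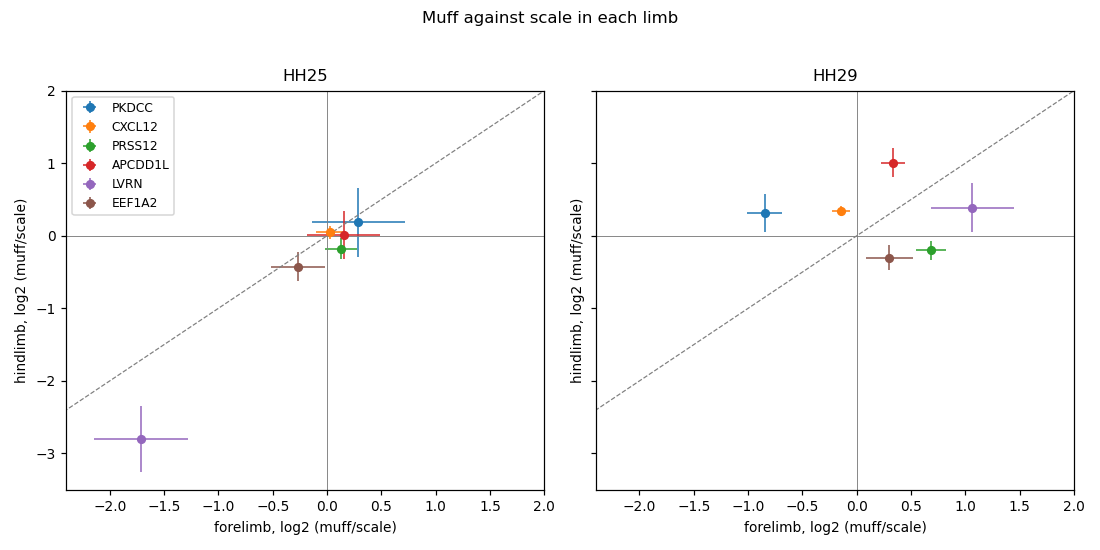
Log2 muff/scale ratio of each gene in forelimb (horizontal axis) and hindlimb (vertical axis) at HH25 and HH29, with SE bars (n = 4 libraries per group) and a dashed line where both limbs shift equally. At HH29, PKDCC (-0.85 in forelimb) and PRSS12 (0.68) depart along the forelimb axis, and APCDD1L (1.01 in hindlimb) and CXCL12 (0.34) along the hindlimb axis.

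The limb that carried the difference thus varied over the 6 genes at HH29. It was mainly the forelimb for PKDCC (lower in muff) and PRSS12 (higher in muff) and mainly the hindlimb for CXCL12 and APCDD1L (both higher in muff). Of the 6, PKDCC and PRSS12 did not overlap between muff and scale in forelimb (13.3% of 13110 features) and CXCL12 and APCDD1L did not overlap in hindlimb (10.1%). The same libraries chose the genes, so these separations only describe which limb moved. Such shares were not computed for the separations that involve grouse, so nothing is read from those. LVRN and EEF1A2 overlapped in each limb. The pair differences of all 6 did not overlap between muff and scale (3.69% of features), which is what they were chosen for.

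At the earlier stages no test of an altered limb difference in muff passed for any of the 6. There were 5 that could be tested at HH21, where the unpaired test called 1 of 13403 features (0.00746%) and the paired test 0 (0%, with 0 members called). All 6 could be tested at HH25, where the tests called 1 (0.00734%) and 4 (0.0294%) of 13618 features, none of them members. Paired estimates at HH25 were -0.21 for PKDCC (SE 0.29), 0.00 for CXCL12 (SE 0.13), -0.11 for APCDD1L (SE 0.21), -1.03 for LVRN (SE 0.47) and -0.16 for EEF1A2 (SE 0.17). The HH25 estimates of PRSS12 and LVRN, neither of them called, lay on the side they had at HH29. For LVRN the limbs behind that sign moved otherwise. The log2 muff/scale estimates were -2.80 in hindlimb and -1.71 in forelimb at HH25, against 0.39 and 1.06 at HH29. No earlier start is therefore read from the shared sign. Those of PKDCC, CXCL12, APCDD1L and EEF1A2 lay within 1 SE of 0, so no side is read for them. Paired estimates at HH21, with muff numbers 2 and 4 kept, were 0.33 for PKDCC (SE 0.19, adjusted p = 0.431 by edgeR), -0.05 for CXCL12 (SE 0.16), 0.05 for PRSS12 (SE 0.20), 0.22 for APCDD1L (SE 0.48) and -0.15 for EEF1A2 (SE 0.25). No side is read for these either. The grouse limb difference against scale was likewise not called at HH21 or HH25 for any tested member (0% of 13369 and 0% of 13638 features). At HH29 the paired grouse estimates were 0.62 for PKDCC, 0.21 for CXCL12, -0.67 for PRSS12, 0.30 for APCDD1L, -0.32 for LVRN and -0.24 for EEF1A2. Unpaired, leaving out 1 library moved LVRN from -0.48 to between -1.08 and 0.55 (the latter without grouse forelimb number 2, the library at 19.6 CPM), EEF1A2 from -0.26 to between -0.39 and -0.05 (the latter without grouse forelimb number 4) and APCDD1L from 0.29 to between 0.12 and 0.45 (without grouse hindlimb number 4 and number 1). Grouse and muff were set against the same scale libraries, which also chose the genes, so nothing is read from their likeness to the muff values.

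**Figure D4:**
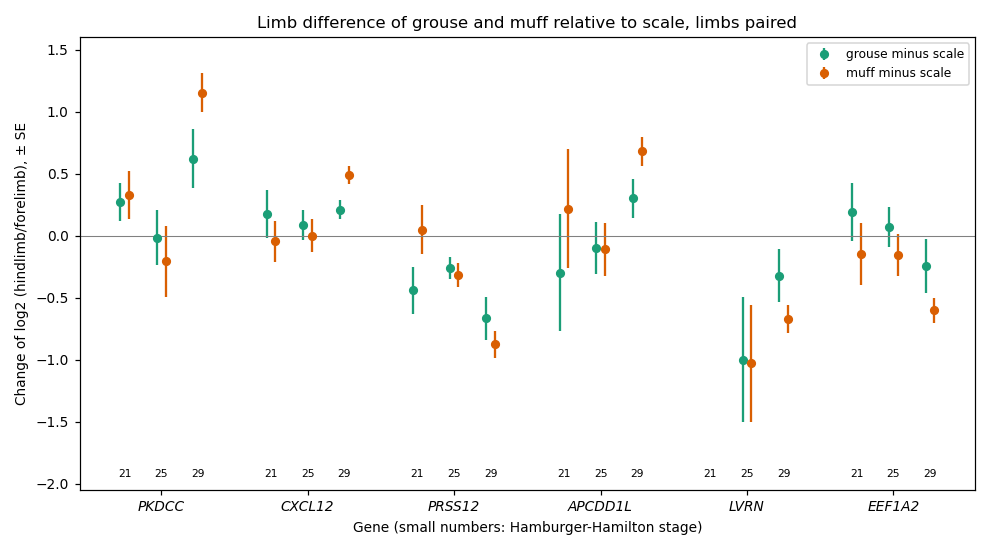
Change of the log2 hindlimb/forelimb ratio relative to scale, for grouse and muff, by gene and stage, from the fit with limbs paired (points; bars are SE, n = 4 pairs per phenotype; LVRN at HH21 not fitted). Muff values for PKDCC go from -0.21 at HH25 to 1.15 at HH29, and those of PRSS12 from -0.32 to -0.88.

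Set against all features, the limb calls were few unpaired and many paired. At HH21, PKDCC was the only 1 of the 6 called in scale (1.16% of all features), grouse (0.517%) and muff (0.954%). At HH25 the unpaired test called 0 of the 6 in scale (0.915%) and muff (1.15%) and APCDD1L in grouse (1.33%), whereas the paired test called 5 in scale (10.5%), 3 in grouse (10.8%) and 3 in muff (7.86%). In grouse at HH29 it was PKDCC alone unpaired (0.953%) and PKDCC, APCDD1L and LVRN paired (1.16%). From HH21 to HH25, 4 members rose in scale hindlimb (16.9% of all features rose) and 4 in forelimb (14.6%), 3 in grouse hindlimb (10.2%) and 3 in forelimb (13.6%), and 3 in muff hindlimb (14.8%) and 5 in forelimb (14.3%). From HH25 to HH29, 5 rose in grouse hindlimb (12.8%) and 4 in forelimb (5.92%), of which 1 to 4 were called when a single library was left out.

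Over the 18 group means, the courses most like each gene were named by Pearson correlation of log2(CPM + 1), as a description without a test, since groups share stages and limbs. PKDCC was closest to TBC1D30 (r = 0.964) and then to 2 TBX5 features of low level (0.952 and 0.946, with means of 1.95 and 2.98 CPM). The TBX5 feature whose levels are given above was not among the 3 closest. CXCL12 was closest to an unnamed gene model, KLF13 (0.938) and EEF2 (0.938). PRSS12 was closest to GXYLT2 (0.965), ADAM22 (0.957) and VIPR1 (0.952), and APCDD1L to HTRA1 (0.994), a hypothetical protein (0.988) and DCAF6 (0.980). LVRN was closest to VIP (0.987) and TRPM6 (0.979), and EEF1A2 to ABI3BP (0.986), TIMP3 (0.984) and TMEM38A (0.982). Among themselves, EEF1A2 and APCDD1L (0.930) and EEF1A2 and PRSS12 (0.928) were closest, all rising over the stages, whereas PKDCC lay between -0.13 and 0.28 of the other 5.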

How the data were processed

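Counts of RNA-seq reads per feature were read from the files of 72 pigeon libraries, whole numbers deposited by the authors. Per the submitters' processing notes, FastQC, STAR, featureCounts and DESeq2 were used; the sources used here give neither their versions nor the strand setting or genome build. The authors' deposited comparison tables served only for gene names. Display values are CPM after TMM scaling over all 72 libraries. Tests used edgeR 4.0.16 in R 4.3.3 (quasi-likelihood, filterByExpr, TMM, Benjamini-Hochberg over all features tested; adjusted p below 0.05 called), were checked on simulated counts, and were repeated with DESeq2 1.42.0 and the alternatives given at the end. Each fit held only the groups compared, without a block. The paired fit adds number within phenotype: limbs of 1 number deviated together in 36 of 36 pairs (r from 0.213 to 0.736), which was taken as pairing. For muff numbers 2 and 4 at HH21 (r = 0.318 and 0.335) the pairing is in doubt, since their limbs were of unlike Z class. Muff and scale libraries of 1 number are different embryos, and the labels do not say what a number shares. At HH25 all 8 same-number pairs of muff and scale exceeded r = 0.1 (0.155 to 0.467), and 7 of 8 were highest with their own number. At HH21 6 of 8 exceeded 0.1 and 4 were highest with their own number, and at HH29 3 of 8 and 3. Between stages 10 of 48 exceeded 0.1 and 8 were highest with their own number. These shares do not settle whether a number links muff and scale at HH21. No pairing was read there, at HH29 or between stages. P-values set a difference against the spread between libraries of a group or, with number as a block, against the spread left after the block. Members and lists were chosen with earlier results of these data known; named genes are the members, listed relatives and the 3 closest courses. Of 157 listed genes, 133 had a feature. Promoter and protein sequences were not used here. No library was left out. The chicken libraries were not analysed here.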

Additional observations from a re-analysis of the deposited data

Results flagged for a closer look

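Within groups of 4 libraries, 102 gene and group combinations with at least 20 counts were examined and 5 had a sample far from the others, about the share of 1 in 20 that chance flags. CXCL12 in grouse hindlimb at HH25 had 1 low library, number 4, at 65.6 CPM. APCDD1L in grouse hindlimb at HH21 had a low library, number 3, at 0.484 CPM. LVRN had a high library in muff forelimb at HH25 (number 3, 1.23 CPM) and in grouse forelimb at HH29 (number 2, 19.6 CPM). EEF1A2 in muff forelimb at HH21 had a high library, number 2, at 3.86 CPM.

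For 2 genes every muff pair moved one way and every scale pair the other at HH29, which chose them and was not tested again. The mean log2 hindlimb/forelimb ratio of PRSS12 was -0.41 in muff and 0.43 in scale. That of EEF1A2 was -0.17 in muff and 0.42 in scale.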

How the results depend on the processing

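The number of the 6 genes called kept its side in most of the 23 tested comparisons, and no called value changed sign under any alternative run. With the replicate block, members called rose to 5 in the scale limb difference at HH25 (0 without), 3 in grouse at HH25 (1 without), 3 in grouse at HH29 (1 without), 3 in muff at HH25 (0 without) and 1 in muff against scale forelimb at HH25 (0 without). In the last of these a number is shared by different embryos. DESeq2 called 2, 3 and 2 in the scale HH25, grouse HH29 and muff HH25 limb differences, and 1 each in muff against scale forelimb at HH21 and HH25. A term for numbers 1 and 2 against 3 and 4 gave 2, 2 and 3 in the scale, grouse and muff limb differences at HH25 and 1 in muff against scale forelimb at HH25. A covariate for Z-linked expression gave 4 in scale and 1 in muff limb differences at HH25, 0 in muff against scale hindlimb at HH25 (1 without), and 1 and 2 in the scale hindlimb and forelimb from HH21 to HH25 (4 and 4 without); the cause was not tested. Leaving out muff numbers 2 and 4 at HH21, chosen after seeing the data, left 0 called in the muff limb difference unpaired, with 4 fewer libraries.

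Leaving out 1 library at a time gave 0 to 1 called in the scale and in the muff limb difference at HH25 and in muff against scale hindlimb at HH25, 3 to 4 in scale hindlimb from HH21 to HH25, 4 to 5 in grouse hindlimb from HH25 to HH29, 3 to 4 in grouse forelimb from HH21 to HH25, 1 to 4 in grouse forelimb from HH25 to HH29 (fewest without number 1 or 2 at HH25), 2 to 4 in muff hindlimb and 4 to 5 in muff forelimb from HH21 to HH25. Fits without a low-count filter and fits on counts summed over gene name gained or lost no call among the 125 gene values tested in the main fits. Values that the filter kept out of the main fits are not covered by this. Over all alternatives the median log2 change of all features stayed within 0.0458 of 0.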
